A study of Equus caballus with 20 samples.

Results

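The Rab GTPases and the Vps sorting proteins were followed in muscle of horses with recurrent exertional rhabdomyolysis (RER), a disorder in which muscle fibres break down after exercise. Members were taken by gene symbol, as Rab or Vps followed by a number and any further letters. The rule found 88 of the 12018 genes with a symbol, on 103 of the 24493 probes. They comprised 51 Rab GTPases, 8 proteins that bind or regulate Rabs and carry a Rab name, and 29 genes named Vps. Of the last group, Vps72 is a subunit of chromatin complexes and no sorting protein.

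The affected group was 5 French Trotter horses with RER and high muscle enzyme activity in plasma, biopsied in a hindquarter muscle, the gluteus medius, and a back muscle, the longissimus lumborum. The comparison group was 10 control horses of the same breed, present only as pooled RNA, with 1 pool for each muscle. The labels used here name no age, sex, treatment or time since an episode. Each RER sample shared 2 oligonucleotide arrays with the pool of its muscle, the dyes exchanged between them, which made 20 arrays. The values are log2 ratios of the paired channels, where 1 is a 2-fold difference. The pool counted as 1 control sample per muscle, so no test holds the spread among control horses.

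Signs are those of the deposited ratios. RER over pool is the likely reading, because RER RNA is the first channel of each array, but the labels leave the direction unstated and it is not settled. Even arrays that share a pool and a dye orientation could run opposite ways, the lowest correlation being -0.341 between the Cy3 arrays of gluteus horses 2 and 4. The paired arrays of a sample correlated below 0 in gluteus horses 2 (-0.21) and 3 (-0.27) and longissimus horses 1 (-0.27) and 2 (-0.32). These were all among the samples with most probes measured. The other pairs correlated from 0.30 to 0.85. Averaging 2 arrays of opposite sign moves a ratio toward 0, and its part in the small ratios was not tested. If every sign were turned, the sizes below would stay and the counts above and below 0 would change places.

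Rab GTPases are molecular switches. Bound to GTP they sit on a particular membrane and recruit the motors, tethers and fusion factors that carry a vesicle to its target, and Rab regulators load them with GTP or make them hydrolyse it. The Vps proteins, first found in yeast by mutants that missorted vacuolar enzymes, build the coats and tethers that bring cargo to the lysosome or retrieve it. In muscle these routes serve the delivery of the glucose transporter GLUT4 to the surface, autophagy and membrane repair.

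No Rab or Vps gene passed the test in either muscle. The retromer subunit Vps29 had the lowest unadjusted p of the members in longissimus, where its ratio was above 0, while it stood below 0 in gluteus. Vps13a lay above 0 in gluteus, but its probes disagreed. The recycling GTPases Rab14 and Rab11b had means below 0 in both muscles, each with 1 horse above 0 in each muscle. Other members, such as Vps11 and Rab4b, also had means below 0 in both. Most members had averaged ratios close to 0, and the largest ratios came from longissimus horse 4.

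Testing was possible for 50 of the 88 members, those with values in at least 4 of the 5 horses in each muscle. Limma with Benjamini-Hochberg adjustment over all 10230 features tested (genes, or single probes without a symbol) called 0 of 50 members in gluteus, against 0% of features, and the lowest adjusted p was 1. In longissimus it called 0 of 50 members, also against 0%, where the smallest adjusted p was 0.827. Gluteus had 1 member with an unadjusted p under 0.05 (Vps13a, above 0), or 2%, where 1.9% of all features reached that level and 0.645% did so above 0. Longissimus had 2 such members, or 4%, where 4.24% of features did. They were Vps29 above 0, as were 1.23% of features, and Rab11b below 0, as were 3.01%. Both shares are close to the background. Every gluteus horse with a value was above 0 for Vps13a (2% of members, 5.49% of features) and below 0 for Vps29 and Vps35 (4%, against 4.21%). In longissimus every horse was above 0 for Vps29 (2%, against 1.91%) and below 0 for 0 members, against 3.04% of features.

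In gluteus, 22 members had a mean above 0 and 28 below, a 44% share above that compares with 46.1% of all features. Their median log2 ratio was -0.016, beside -0.0097 over all features. In longissimus 26 lay above and 24 below, a 52% share beside 48.7%, with a median of 0.0074 against -0.0041. The median size without sign was 0.077 for members and 0.070 for all features in gluteus, and 0.12 against 0.096 in longissimus. For 49 of 50 members in each muscle the 95% confidence interval stayed within a 2-fold difference, or 98%, beside 96.7% of features in gluteus and 94.4% in longissimus. The exceptions were Rab3d in gluteus and Rab14 in longissimus.

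**Figure D1:**
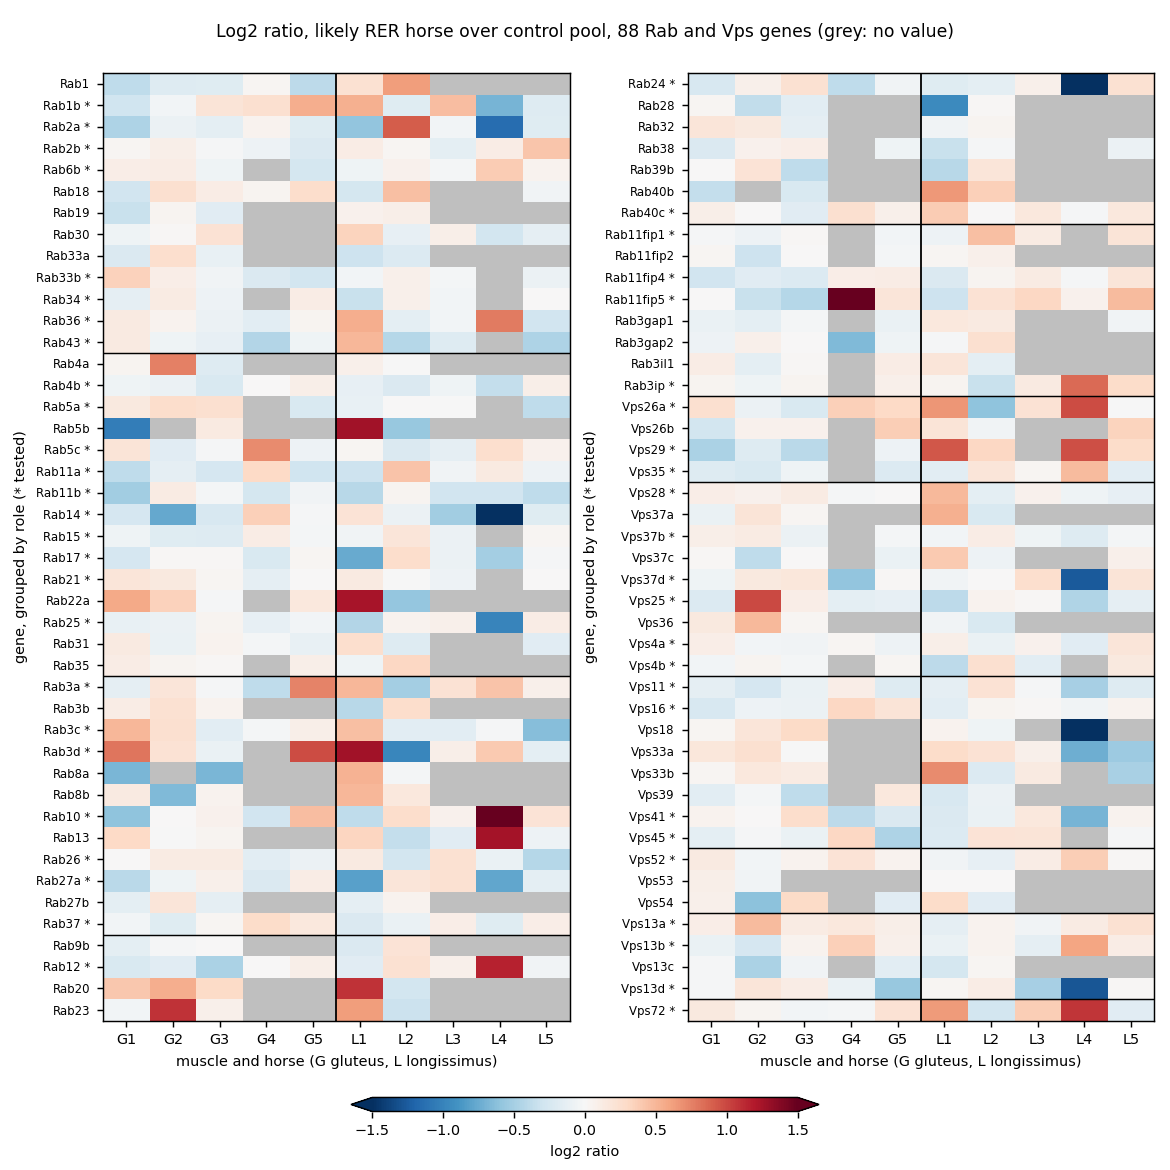
Log2 ratio of each of the 88 Rab and Vps genes (rows, ordered by role) in each RER horse and muscle (columns), grey where a gene had no value from both arrays and starred where the gene was tested; colours saturate at the ends of the bar. Strong colours gather in the column of longissimus horse 4, and among the starred rows Vps29 alone has 1 colour throughout gluteus and the other throughout longissimus.

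The retromer, a coat that returns receptors from endosomes to the Golgi or the surface, was described by 4 genes, each on 1 probe. Vps26a, Vps29 and Vps35 make up its cargo-recognition core, with Vps26b as the alternative to Vps26a. For Vps29 the gluteus log2 ratios were -0.47 in horse 1, -0.19 in horse 2, -0.41 in horse 3 and -0.080 in horse 5. In longissimus they were 0.94 in horse 1, 0.31 in horse 2, 0.96 in horse 4 and 0.28 in horse 5. The groups did not overlap, with every gluteus value below 0 and every longissimus value above it.

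The single arrays of Vps29 showed the same split. Gluteus gave 9 arrays with a value, all below 0, from -0.65 (Cy3, horse 3) to -0.062 (Cy5, horse 5). Longissimus gave 8 arrays, all above 0, from 0.12 (Cy5, horse 5) to 1.42 (Cy5, horse 1). The sign was the same whichever dye the RER RNA carried. The arrays of a pair repeat the same sample, and all arrays of a muscle share its 1 pool. The Vps29 level of that pool therefore enters every array of the muscle, and the difference between muscles takes in both pools. The part of the pools in the split was not tested. Of all 10230 features, 1 was below 0 on every gluteus array and above 0 on every longissimus array with a value, which is 0.00978%, and it was Vps29. The pattern counted was the one Vps29 shows, and Vps29 was known from earlier results of these data. The count is therefore a description and no separate support. By horse values, 10 features (0.0978%) had that pattern and 7 (0.0684%) the opposite one. Among the 38 untested members, Rab40b shared the Vps29 pattern in the 2 horses it had in each muscle, and Vps36 had the opposite one in 3 gluteus and 2 longissimus horses. With so few horses a single sign per muscle is reached more easily. The shares above are over tested features and do not apply to these genes, and none was counted for features with so few values.

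The mean of Vps29 was -0.29 ± 0.14 (SE, n = 4) in gluteus, with an unadjusted p of 0.0716 and an adjusted p of 1 in limma. In longissimus it was 0.62 ± 0.14 (SE, n = 4), with an unadjusted p of 0.00173 and an adjusted p of 0.827. Gluteus minus longissimus came to -0.91 ± 0.20 (SE), with an unadjusted p of 0.00141 and an adjusted p of 0.9996. Only 3 horses had both muscles measured, and their differences were -1.41 in horse 1, -0.50 in horse 2 and -0.36 in horse 5. With the horse as a block, which uses these 3 horses, the difference was -0.76 ± 0.25 (SE), limma's adjusted p being 0.943. Turning the Cy3 array in the pairs whose arrays correlate below 0 left signs in place and brought the means to -0.10 and 0.43.

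The other retromer subunits did not share that split. Vps35, the backbone of the complex, had gluteus ratios of -0.20 in horse 1, -0.23 in horse 2, -0.063 in horse 3 and -0.21 in horse 5. In longissimus it stood at -0.16, 0.18, 0.035, 0.47 and -0.16 in horses 1 to 5. The gluteus values were all below 0 and the longissimus values lay on both sides. Its means were -0.17 ± 0.11 (SE, n = 4) and 0.073 ± 0.097 (SE, n = 5). The fitted difference, which does not pair the muscles of a horse, was -0.25 ± 0.15 (SE). Paired by horse, the difference was below 0 in 4 of 4 horses, with an SD of 0.18.

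Vps26a ratios were 0.24, -0.083, -0.22, 0.36 and 0.30 in gluteus and 0.67, -0.60, 0.22, 0.98 and -0.00045 in longissimus, in horses 1 to 5. Both muscles had values on each side of 0, and the means were 0.12 ± 0.19 and 0.25 ± 0.19 (SE, n = 5 each). Vps26b was not tested. It had gluteus values of -0.28, 0.068, 0.063 and 0.36 in horses 1, 2, 3 and 5, and longissimus values of 0.20, -0.051 and 0.33 in horses 1, 2 and 5.

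**Figure D2:**
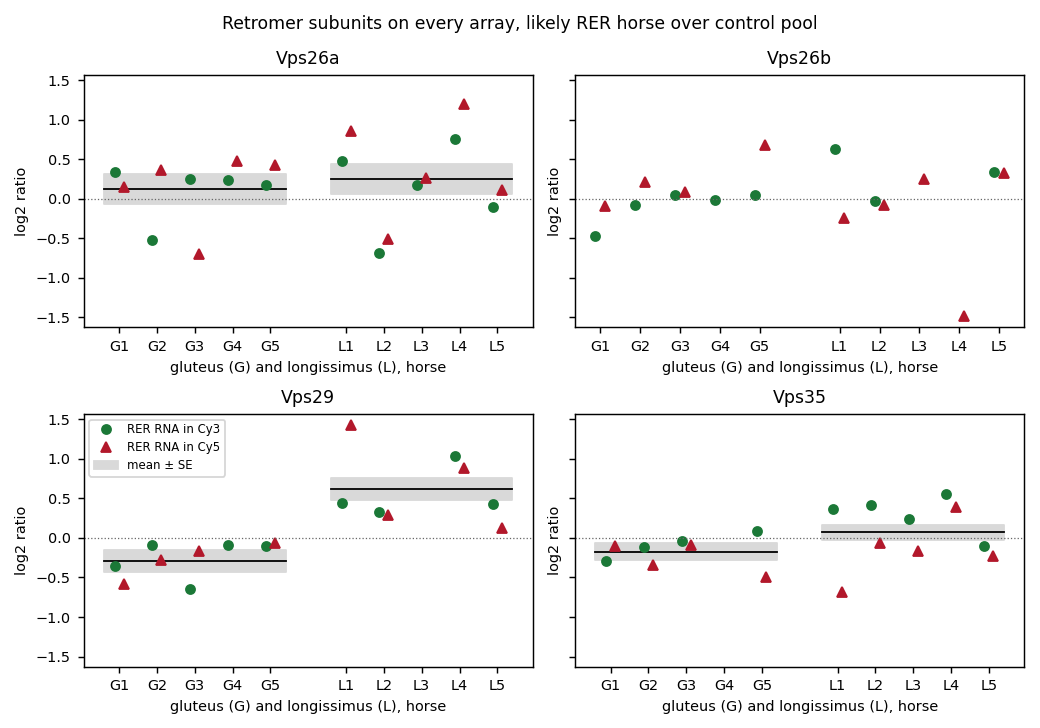
Log2 ratio of 4 retromer genes on each array, by horse in gluteus (G1 to G5) and longissimus (L1 to L5), with RER RNA in Cy3 as circles and in Cy5 as triangles; line and band give the fitted mean ± SE of tested genes. Vps29 lies below 0 on all 9 gluteus arrays and above 0 on all 8 longissimus arrays, while the other subunits cross 0.

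Rabs of early and recycling endosomes were 15 genes, of which 10 could be tested. In gluteus 3 lay above and 7 below 0 with a median of -0.068, and in longissimus 4 lay above and 6 below with a median of -0.13. None passed the test. Rab14 works between the Golgi and endosomes and takes part in GLUT4 traffic. Its gluteus ratios were -0.25, -0.77, -0.24, 0.36 and -0.015 in horses 1 to 5, and its longissimus ratios 0.21, -0.084, -0.52, -1.88 and -0.18. Each muscle had 1 horse above 0, and horse 4 was the highest in gluteus and the lowest in longissimus.

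Averaged over both muscles, Rab14 was below 0 in each of the 5 horses, at -0.023, -0.43, -0.38, -0.76 and -0.099. The mean of -0.34 ± 0.11 (SE, n = 5) had an unadjusted p of 0.0206 and an adjusted p of 0.999 in limma. Without horse 4 it was -0.23. In longissimus alone the mean was -0.49 ± 0.26 (SE, n = 5), and -0.15 without horse 4, while the 2 horses on dense arrays (those with most probes measured) averaged 0.062.

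Rab11b and Rab11a mark the slow recycling endosome. Rab11b gave -0.52, 0.13, -0.028, -0.27 and -0.057 in gluteus and -0.42, 0.042, -0.29, -0.29 and -0.38 in longissimus, in horses 1 to 5. All horses but the second were below 0 in both muscles, as were 16 of 20 arrays. The longissimus mean was -0.27 ± 0.10 (SE, n = 5), with an unadjusted p of 0.0226 and an adjusted p of 0.827. Over both muscles it was -0.21 ± 0.087 (SE, n = 5), with an unadjusted p of 0.0475 and an adjusted p of 0.999, both by limma. With the Cy3 arrays of the opposed pairs turned, the longissimus mean was -0.089. Rab11a, its near copy, stood at -0.15 ± 0.12 in gluteus and 0.027 ± 0.12 in longissimus (SE, n = 5 each).

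Rab5a and Rab5c drive fusion of early endosomes. Rab5a had 0.14, 0.27, 0.24 and -0.23 in gluteus and -0.11, 0.011, -0.0057 and -0.38 in longissimus, in horses 1, 2, 3 and 5. The gluteus ratio was the higher in all 4, by 0.25, 0.26, 0.25 and 0.15, with an SD of 0.050. The fitted difference, which does not pair the muscles of a horse, was 0.23 ± 0.15 (SE) with an adjusted p of 0.9996 in limma. It was -0.020 with the opposed Cy3 arrays turned. Rab5c stood at 0.13 and 0.00098.

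Among the rest of the endosomal Rabs the means were small. Rab4b, a GTPase of fast recycling, was at -0.056 in gluteus and -0.13 in longissimus. Rab17 and Rab25, known from epithelial cells, stood at -0.084 and -0.067 in gluteus and at -0.22 and -0.24 in longissimus, where Rab25 in horse 4 was -0.996. Rab21, which moves integrins, and Rab15 had the same sign of difference between muscles in 4 of 4 horses. In horses 1, 2, 3 and 5 Rab21 differed by 0.037, 0.16, 0.098 and 0.0031, and Rab15 by -0.012, -0.36, -0.11 and -0.057. The fitted differences, which also take in gluteus horse 4 and do not pair the muscles of a horse, were 0.030 and -0.089. Both were smaller than their standard errors of 0.11, and without horse 2 they were -0.0042 and -0.0081.

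Rabs of the early secretory route and Golgi were 13 genes, with 8 tested. In gluteus 2 were above and 6 below 0 (median -0.025), and in longissimus 3 above and 5 below (median -0.019). Rab2a, which acts between endoplasmic reticulum and Golgi, was lowest in both muscles at -0.17 ± 0.22 and -0.21 ± 0.22 (SE, n = 5 each). Its longissimus values ran from -1.14 in horse 4 to 0.91 in horse 2, so the mean hides opposite ratios. Rab1b, of the same step, stood at 0.13 and -0.016. Rab36 was the highest in longissimus at 0.17 ± 0.14 (SE, n = 5), averaging 0.61 on the Cy3 arrays and -0.27 on the Cy5 arrays. Rab1 was not tested. Its gluteus values were -0.38, -0.20, -0.18, 0.028 and -0.39, and longissimus gave 0.23 and 0.62 in horses 1 and 2.

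Rabs of secretion and surface delivery were 12 genes, with 7 tested. In gluteus 5 lay above and 2 below 0 (median 0.045), and in longissimus 3 above and 4 below (median -0.060). Rab10 guides GLUT4 vesicles in fat cells. It had -0.60, 0.011, 0.065, -0.29 and 0.46 in gluteus and -0.38, 0.26, 0.064, 1.67 and 0.21 in longissimus. The longissimus mean was 0.36 ± 0.24 (SE, n = 5). Horse 4 was the highest, with 1.78 on its Cy3 array and 1.57 on its Cy5 array. Rab13, also linked to GLUT4 in muscle cells, was measured in 3 gluteus horses and not tested, and it too was high in longissimus horse 4 at 1.25.

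The Rab3 GTPases control regulated exocytosis. Rab3d had the highest gluteus mean of the tested members, 0.48 ± 0.30 (SE, n = 4), from 0.80, 0.22, -0.10 and 0.98 in horses 1, 2, 3 and 5. Its longissimus values ran from -0.98 in horse 2 to 1.26 in horse 1, with a mean of 0.12 ± 0.27 (SE, n = 5). Rab3a stood at 0.082 and 0.14. Rab3c was followed here because it alone passed in any alternative. Its longissimus mean was -0.10 ± 0.14 (SE, n = 5), and its arrays split by dye.

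With RER RNA in Cy3, the longissimus ratios of Rab3c were 1.10, 0.77, 0.29, 0.61 and -0.23 in horses 1 to 5. In Cy5 they were -0.19, -1.08, -0.59, -0.63 and -1.04. The Cy5 values were all below 0 and the Cy3 values were above 0 in 4 of 5 horses. Taken alone, the Cy5 arrays gave -0.71 ± 0.13 (SE, n = 5) with an adjusted p of 0.0371 in limma, and the Cy3 arrays 0.51 ± 0.19 (SE, n = 5) with an adjusted p of 0.203. On the longissimus Cy5 arrays 1 of 53 members was called, beside 90 of 10829 features. There 4 of 53 members had an unadjusted p under 0.05, beside 2119 of 10829 features. Opposite signs under exchanged dyes were common. The Cy3 and Cy5 means shared a sign for 26 of 50 members in gluteus (52%, against 42.9% of all features) and 27 of 50 in longissimus (54%, against 39.8%).

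Of the 11 other Rabs, 3 were tested. Rab12 and Rab24, both tied to autophagy and lysosomal breakdown, went opposite ways in longissimus, at 0.25 ± 0.16 and -0.41 ± 0.26 (SE, n = 5 each). Horse 4 had 1.16 for Rab12 and -2.01 for Rab24, while the other horses lay between -0.18 and 0.23 for both. Rab40c, which pairs a Rab fold with a ubiquitin ligase motif, stood at 0.047 and 0.14.

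Proteins that bind or regulate Rabs and carry their name were 8, with 4 tested. In gluteus 2 lay above and 2 below 0 (median -0.0025), and in longissimus all 4 lay above (median 0.16). The Rab11 partner Rab11fip1 had a longissimus mean of 0.17 ± 0.093 (SE, n = 4), and Rab3ip, an exchange factor that loads Rab8 with GTP, 0.19 ± 0.14 (SE, n = 5). Rab11fip1 was read by 2 probes, the first averaging 0.44 in 2 longissimus horses and the second 0.044 in 4. By dye, its longissimus mean was 0.42 on the Cy3 arrays and -0.073 on the Cy5 arrays. Rab11fip5 had gluteus ratios of 0.0084, -0.33, -0.43, 1.63 and 0.18 in horses 1 to 5. Horse 4 stood apart on both arrays, at 1.66 and 1.61. In that sample the 4 tested fibroblast and matrix markers, of 7 on the array, had a median of 2.38, against a range from -0.60 to 0.23 in the other gluteus samples. Their part in the Rab11fip5 value was not tested. In whole biopsies, a change in the number of cells of a type and a change in RNA per cell cannot be told apart.

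ESCRT proteins, which bud vesicles into the endosome and help seal torn membranes, had 9 genes here and 6 tested. In gluteus 3 were above and 3 below 0 (median 0.011), and in longissimus 2 above and 4 below (median -0.042). Vps25, of ESCRT-II, stood in gluteus at -0.20, 0.99, 0.11, -0.15 and -0.13 and in longissimus at -0.39, 0.054, 0.023, -0.45 and -0.14, in horses 1 to 5. The gluteus ratio was the higher in 5 of 5 horses, by 0.19, 0.93, 0.082, 0.30 and 0.013. These 5 differences had an SD of 0.37. The fitted difference, which does not pair the muscles of a horse, was 0.30 ± 0.22 (SE). It drew most on horse 2, whose Cy5 array gave 1.88 and Cy3 array 0.092, and it was 0.15 without that horse.

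The other ESCRT subunits stayed near 0. Vps28, Vps37b and the ATPases Vps4a and Vps4b, which take the filaments apart, had means between -0.044 and 0.057 in both muscles, with standard errors from 0.069 to 0.11. For Vps4b this averaged 2 probes that disagreed in gluteus, with means of 0.093 and -0.13. In longissimus they gave -0.011 and -0.054. Vps37d stood at -0.064 in gluteus and -0.17 in longissimus, where horse 4 was at -1.26.

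Tethering and fusion at the lysosome had 8 genes, with 4 tested, and 3 of the 4 lay below 0 in each muscle (medians -0.071 and -0.073). Vps11, a core subunit of the CORVET and HOPS tethers, was in gluteus at -0.13, -0.26, -0.10, 0.10 and -0.19 and in longissimus at -0.13, 0.21, -0.020, -0.50 and -0.20. Averaged over the muscles it was below 0 in all 5 horses, with a mean of -0.12 ± 0.059 (SE, n = 5), an unadjusted p of 0.0808 and an adjusted p of 0.999 in limma. The HOPS subunit Vps41 stood at -0.059 and -0.16, the core subunit Vps16 at 0.021 and -0.019, and Vps45, which assists endosomal fusion, at -0.083 and 0.043. In longissimus Vps41 averaged -0.63 on the Cy3 arrays and 0.31 on the Cy5 arrays. Vps18, another core subunit, was not tested. Its -3.29 in longissimus horse 4 was the lowest member value and averaged 0.10 on the Cy5 array with the deposited floor of -6.6439 on the Cy3 array. In the 5 other samples with a value Vps18 lay between -0.066 and 0.28. Of the GARP complex, which tethers endosome vesicles at the Golgi, only Vps52 of 3 genes was tested, at 0.081 and 0.065. Its Cy3 and Cy5 arrays averaged -0.22 and 0.38 in gluteus and -0.32 and 0.45 in longissimus.

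The Vps13 family moves lipid between membranes at contact sites, and loss of VPS13A in humans causes chorea-acanthocytosis, in which serum creatine kinase is often raised. Vps13a gluteus ratios were 0.10, 0.48, 0.12, 0.16 and 0.083 in horses 1 to 5, and its longissimus ratios -0.13, 0.049, -0.058, 0.13 and 0.22. All gluteus values were above 0, and the longissimus values lay on both sides. The gluteus mean was 0.19 ± 0.080 (SE, n = 5), with an unadjusted p of 0.0372 and an adjusted p of 1 in limma, and it was 0.12 without horse 2. The longissimus mean was 0.042 ± 0.080 (SE, n = 5).

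Vps13a was read by 4 probes, and they disagreed. The third probe, the one with a value in all 5 gluteus horses, gave -0.16, -0.25, -0.17, 0.27 and -0.035, a mean of -0.071. The second gave 0.15, 1.04, 0.13 and 0.31 in horses 1, 2, 3 and 5, a mean of 0.41. In horse 4 the third probe gave 0.14 on the Cy3 array and 0.40 on the Cy5 array, and the second gave -0.28 on the Cy3 array only. Both entered the value of 0.16. By dye, the gluteus mean was -0.030 on the Cy3 arrays and 0.41 on the Cy5 arrays. The single sign across gluteus horses thus held for the average of the probes and not for each of them.

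**Figure D3:**
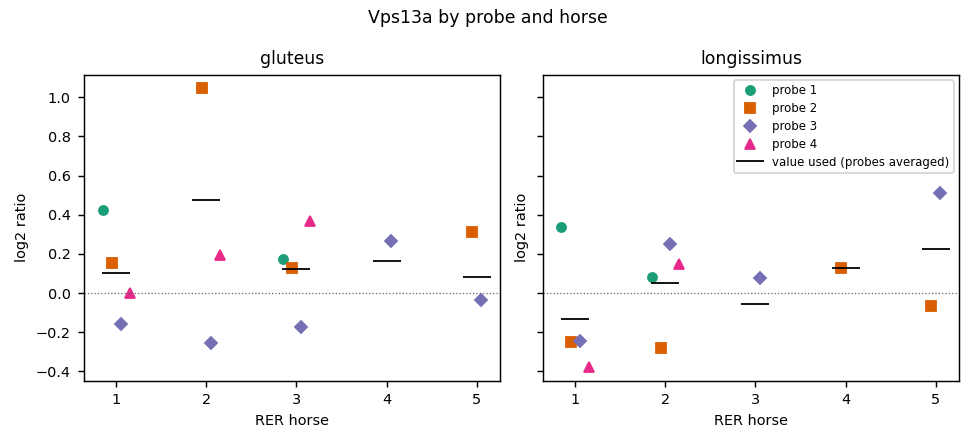
Log2 ratio of each of the 4 Vps13a probes (symbols) in each RER horse in gluteus and longissimus, drawn where both arrays gave the probe a value; the line is the average used in the fit, which also takes in probes measured on 1 array of a pair. In gluteus the third probe lies below 0 in 4 of 5 horses while the second lies above 0 in each of the 4 horses drawn for it, and in horse 4 the third alone is drawn.

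Vps13d, needed for mitochondrial clearance, had longissimus ratios of 0.026, 0.12, -0.50, -1.28 and 0.015, a mean of -0.32 ± 0.19 (SE, n = 5), and -0.080 in gluteus. Its 3 probes averaged -0.35 (5 horses), -0.0075 (2 horses) and -0.12 (4 horses) in longissimus, and the first alone gave the value of horse 4. Vps13b, the gene of Cohen syndrome in humans, stood at 0.026 and 0.11. Its 3 probes averaged -0.076, -0.071 and 0.18 in gluteus. The chromatin subunit Vps72 had longissimus ratios of 0.63, -0.28, 0.37, 1.07 and -0.16, a mean of 0.33 ± 0.16 (SE, n = 5) with an unadjusted p of 0.0738.

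**Figure D4:**
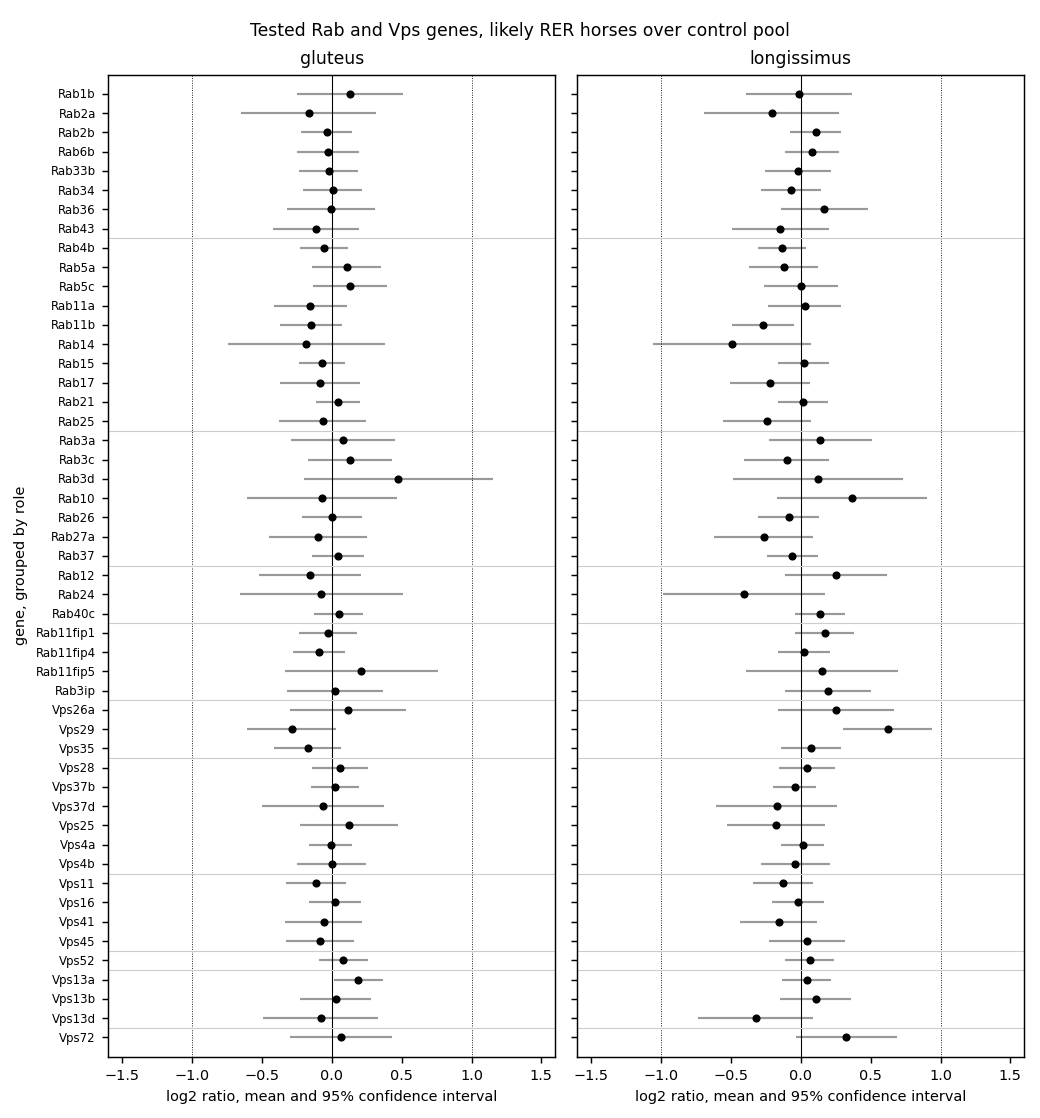
Mean log2 ratio (points) and 95% confidence interval (bars) of the 50 tested Rab and Vps genes in gluteus and longissimus, ordered by role, with dotted lines at a 2-fold difference. In longissimus the Vps29 interval lies above 0 and the Rab11b interval below it, in gluteus the Vps13a interval lies above 0, and the other intervals cross 0.

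The mean of both muscles asked what was common to the biopsies of a horse. Of 49 members tested 0 passed, against 0% of 10120 features, and 2 (Rab14 and Rab11b, 4.08%) had an unadjusted p under 0.05, where 1.97% of features did. Both were below 0, as were 1.43% of features. Those below 0 in every horse were Rab14, Vps11 and Vps35, which is 6.12% of members, where 3.24% of features were so. Vps35 stood at -0.10 ± 0.072 (SE, n = 4). No member was above 0 in every horse, where 2.25% of features were. By mean, 24 members lay above 0 and 25 below, a 49% share above beside 45% of features.

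The difference between the muscles likewise passed for 0 of 50 members, against 0% of features, and 1 member (Vps29, 2%) had an unadjusted p under 0.05, where 1.78% of features did and 0.987% did so below 0. The gluteus ratio was above the longissimus ratio in every horse for Rab5a, Rab21 and Vps25, or 6% of members against 5.21% of features. It was below in every horse for Vps29, Vps35 and Rab15, or 6% against 4.89%. By mean, 30 members had the higher ratio in gluteus and 20 in longissimus, a 60% share beside 51.1% of features. Each ratio is against the pool of its own muscle, so the difference does not compare expression between the muscles.

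Longissimus horse 4 spread the members widest, with an SD of 0.926 over 45 members, where the other samples had SDs between 0.175 and 0.437. All features spread as well in that sample, with an SD of 0.860. There 10 of 45 members were beyond a 2-fold difference (22.2%, against 17.5% of all features), of the 17 such member values in the 10 samples. They were Rab10, Rab12, Rab13 and Vps72 above 0, and Rab14, Rab24, Rab2a, Vps13d, Vps18 and Vps37d below. The other 7 were Rab3d, Rab5b, Rab20 and Rab22a in longissimus horse 1, Rab5b and Rab23 in gluteus horses 1 and 2, and Rab11fip5.

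In longissimus horse 4, 35 of 45 members had the same sign on both arrays (77.8%), close to the 79.7% of all features there. In the other samples 36.5% to 70% of members did, beside 38% to 66.4% of all features. Across genes, the arrays of longissimus horse 4 correlated at 0.518 over members and 0.842 over all features. In that sample the muscle fibre markers had a median of -0.50 over 12 tested of 13 on the array, and the 2 tested macrophage markers, of 8, a median of -1.13. In the other samples these medians ran from -0.20 to 0.17 and from -0.26 to 0.071. Their part in the members' values was not tested. A ratio to a pool holds no level, so the labelled tissue could not be checked by how strongly its defining markers were expressed.

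**Figure D5:**
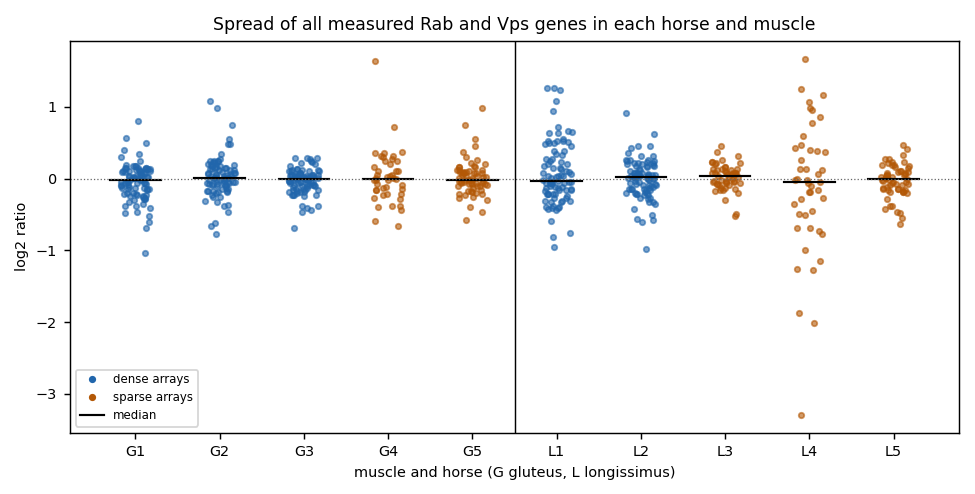
Log2 ratio of every measured Rab and Vps gene (points) in each RER horse in gluteus (G1 to G5) and longissimus (L1 to L5), coloured by dense or sparse arrays, with the median as a line. The medians lie between -0.051 and 0.035, and L4 is spread more widely than the other samples.

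Genes of the same routes under other names also gave 0 calls in limma, against 0% of features. Of 52 Rab cycle regulators on the array 28 were tested, with 14 above and 14 below 0 in gluteus and 16 and 12 in longissimus. Their medians were 0.00027 and 0.012. Tbc1d14, a Rab regulator of autophagy, was the 1 of 28 with an unadjusted p under 0.05 in gluteus, where 1.9% of all features had one. It stood at 0.20 ± 0.068 (SE, n = 5), with an unadjusted p of 0.0153 and an adjusted p of 1 in limma. Of 42 effectors and tethers 21 were tested, with 5 above and 16 below 0 in gluteus (median -0.053) and 9 and 12 in longissimus (median -0.068). Among them the vesicle motor Myo5a stood at 0.28 ± 0.11 (SE, n = 5) in longissimus, with an unadjusted p of 0.0281 and an adjusted p of 0.827 in limma. It was the 1 of 21 with an unadjusted p under 0.05 there, where 4.24% of all features had one.

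Sorting nexins, which bend endosome membranes beside the retromer, had 15 of 29 tested, with 7 above and 8 below 0 in gluteus and 8 and 7 in longissimus. The 8 tested ESCRT proteins under other names, of 16, had 2 above and 6 below in gluteus and 5 and 3 in longissimus. SNAREs and fusion factors had 16 of 39 tested, split 8 and 8 in gluteus and 9 and 7 in longissimus. In these 3 groups 0 genes had an unadjusted p under 0.05 in a single muscle. Over both muscles the tether subunit Exoc3 (-0.26), the nexin Snx9 (-0.22) and the SNARE Sec22b (0.21) did, each with an adjusted p of 0.999 in limma. They were 1 each of 20, 15 and 15 tested in their groups, where 1.97% of all features had such a p. The 27 Rab cycle regulators and 8 ESCRT proteins tested over both muscles had 0.

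The arrays differed in how many probes they measured, and this set which members could be tested. Grouped by that number, 10 arrays were dense with 22032 to 24050 values (gluteus horses 1, 2 and 3, longissimus horses 1 and 2) and 10 were sparse with 8966 to 17708. Of the 38 untested members 4 lacked horses in gluteus only, 15 in longissimus only and 19 in both. Since each horse lies in 1 array group within a muscle, the group and the horse cannot be told apart. In all, 703 of 880 possible member values were measured, and 35 members had all 10. Members' symbols follow the array's annotation in mouse style, and how well the probes match horse RNA was not tested. Hybridisation across near copies (Rab1 and Rab1b, the Rab3, Rab5 and Rab11 groups, Vps4a and Vps4b) was not tested.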

How the data were processed

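The authors deposited log2 ratios of the paired channels, normalized before deposit by a method not given in the sources used here. Per the labels' protocols, RNA was extracted with phenol and chloroform, amplified, labelled through amino-allyl groups (5 µg) and hybridised with the dyes exchanged, and the paired results were averaged. That the scale is log2 was judged from the values. Gene symbols came from the platform annotation, for 13692 of 24493 probes.

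Each array was centred on its median, probes of the same symbol (ignoring case) were averaged, giving 22819 features, and each dye-swap pair was reduced to its mean where neither array lacked a value. Features with at least 4 of 5 horses per muscle were tested. A single limma 3.58.1 fit in R 4.3.3 of the 10 horse and muscle values, with muscle as the factor, gave both muscles and their difference. The mean of both muscles used the 5 per-horse means. Ratios were tested against 0, with Benjamini-Hochberg adjustment over all features and a threshold of 0.05. The standard errors of a single muscle use a spread shared by both muscles. That fit has no term for the horse, so the standard error of a difference leaves out the pairing, except with the horse as a block. Scripts were tested on simulated data. The 5 horses are the replicates and their number limits precision.

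The labels give the same horse numbers in both muscles, so the horse pairs them. As a check, the correlation of a horse's deviations in both muscles was 0.577, 0.301, -0.101, 0.0194 and -0.00457. The orientation of the ratios was kept as deposited.

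Members and lists were chosen with earlier results of these data known, and Vps29 and Vps13a were among those results. Named members are those with 1 sign in every horse, up to 4 per direction by smallest p in a muscle and up to 3 in the mean and the difference, plus Vps29 and Vps13a. Rab11b, Rab14 in longissimus, Rab3c and the members singled out for a sample or a role were named after their values were seen. Alternatives changed the arrays used, the filter, centring, probe averaging, the floor, orientation, the horse as a block, and each horse left out. No sequences are shown.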

Additional observations from a re-analysis of the deposited data

Results flagged for a closer look

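In gluteus, Vps13a in horse 2 stood at 0.48, far from the other horses at 0.083 to 0.16. Probes of the same gene gave 1.04 and -0.25 there. In longissimus, Rab11b in horse 2 stood at 0.042, apart from the other horses at -0.42 to -0.29. Vps29 had every gluteus value below 0 and every longissimus value above it, a difference of -0.91 ± 0.20 (SE), with an unadjusted p of 0.00141 and an adjusted p of 0.9996 in limma. Among the 50 tested members, 2 had a single far sample in gluteus (Vps13a and Vps25, both in horse 2) and 3 in longissimus (Rab11b in horse 2, Rab24 and Vps37d in horse 4). Chance gives such a far sample in about 1 in 20 sets of a gene's values in a muscle, and each muscle had 50 sets.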

How the results depend on the processing

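Over 320 comparisons of a result with an alternative setting, 302 kept the direction and the side of the threshold, 17 took the other sign and 1 passed the threshold. The counts of called features were 0 in all comparisons, and stayed 0 without each horse in turn. They moved in gluteus to 1 with Cy3 arrays only, 4 with Cy5 arrays only and 1 with sparse arrays only. They moved in longissimus to 2, 90 and 1 under these settings, and in the mean of both muscles to 7 with Cy5 arrays only and 1 with sparse arrays only. The 90, of 10829 features tested there, held Rab3c, 1 of 53 members and the only member called in any alternative (-0.71, adjusted p 0.0371). Rab3c stood at 0.51 with Cy3 arrays only, at 0.15 on dense arrays only and between -0.24 and 0.033 with a horse left out. The members' median in gluteus, -0.016, moved to -0.045 with Cy5 arrays only, 0.0015 with any array of a pair, 0.033 with sparse arrays only and -0.047 with each probe as a feature, and lay between -0.034 (without horse 2) and -0.0033 with a horse left out. In longissimus it moved from 0.0074 to -0.033 with Cy5 arrays only and lay between -0.022 and -0.00051 with a horse left out.

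With the horse as a replicate block, 0 features were called in the difference and Vps29 stood at -0.76 (adjusted p 0.943). No call changed. Cy3 arrays only turned Vps13a to -0.030 in gluteus, -0.014 in the mean and -0.033 in the difference, and Vps35 to 0.072 in the mean. The third probe of Vps13a gave -0.071, -0.0036 and -0.22 in these 3 comparisons. In longissimus Vps13a stood at -0.042 on dense arrays, at -0.12 by its second probe, and between -0.0036 (without horse 5) and 0.086 with a horse left out. Rab14 in longissimus was 0.062 on dense arrays. The Rab5a difference was -0.020 with the opposed Cy3 arrays turned. The fitted Rab21 difference was -0.040 with Cy5 arrays only and between -0.0042 and 0.074 with a horse left out. The causes were not tested.

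Vps29 kept its sign in both muscles and in the difference under 14 settings each, with ranges of -0.36 to -0.10, 0.43 to 0.74 and -1.09 to -0.53. Dense or sparse arrays alone leave 2 or 3 horses per muscle. Sparse arrays only, and a filter on all 5 horses, gave no value for members lacking a horse, such as Vps29, Vps35 and Rab5a. Ratios hold no signal over background, so dim members cannot be told from unchanged ones.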
